A study of Homo sapiens with 28 samples.

Results

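The comparison described here sets LNCaP cells given a chemical inhibitor of PERK against LNCaP cells depleted of ATF4 by siRNA, with the protein-folding poison tunicamycin (TM) present in both. LNCaP is an established human prostate cancer line that expresses prostate-specific antigen. The members were chosen by label alone: 4 libraries of the group TM PERKi siCtrl (tunicamycin at 2.5 µg/mL, the PERK inhibitor GSK2606414 at 100 nM and a non-targeting siRNA) against 8 libraries with tunicamycin and 1 of 2 ATF4 siRNA oligos (4 of TM siATF4-2 and 4 of TM siATF4-3, with no inhibitor), which is 12 of the 28 libraries of the series. The value of a comparison was the PERKi group minus the mean of the 2 oligo groups, over all genes. Values are also given from 4 TM siCtrl libraries (tunicamycin and the non-targeting siRNA) and 4 DMSO siCtrl libraries (solvent and the same siRNA). Cells were reverse-transfected in 12-well plates, treated for 18 h and collected at 2 days, and the design text names independent experiments as the source of the 4 samples of a group. All groups come from 1 cell line, and each siRNA was a single oligo.

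Tunicamycin blocks the first step of N-linked glycosylation, so that unfolded glycoproteins collect in the endoplasmic reticulum (ER) and the unfolded protein response starts. PERK (gene EIF2AK3) is 1 of the 3 ER sensors of that response. It phosphorylates the translation factor eIF2 alpha, which slows protein synthesis in general while the mRNA of ATF4 is translated more. ATF4 then switches on genes of amino acid supply, redox balance and stress signalling. The other sensors, IRE1 (ERN1) and ATF6, act through XBP1 and through ATF6 itself on ER chaperones and ER-associated degradation. Other eIF2 kinases, such as GCN2 (EIF2AK4), can also lead to ATF4.

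Library totals were 11580800 to 15593975 counts in the PERKi group, 12014347 to 13608748 in the siATF4-2 group and 10794637 to 13664563 in the siATF4-3 group. Levels are TMM-scaled CPM (a gene's counts over the scaled library total), and differences are log2 values ± SE from edgeR's quasi-likelihood fit to all 28 libraries, with p-values adjusted by Benjamini-Hochberg over the 14314 genes with enough counts of 25369 in the tables. A gene is called at an adjusted p below 0.05. The 10 most abundant genes took 9.41% to 9.85% of the counts in PERKi libraries, 5.73% to 6.21% in the 8 ATF4 siRNA libraries and 7.16% to 7.57% in TM siCtrl libraries. The top gene in each PERKi library was HSPA5, against EEF1A1 in each of the 8 ATF4 siRNA libraries. Replicate 4 of the ATF4 siRNA groups stood apart in some genes, CHAC1 and FIBIN among them. Values without these libraries are given beside some of the results that move with them, but not beside all.

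The targeted gene was the first to be examined. ATF4 (hg19 chr22:39916564-39918691, plus strand) was measured at 1460.5, 1469.7, 1384 and 1343 CPM in the 4 PERKi libraries, against 221, 194, 176 and 358 CPM with siATF4-2 and 115, 98.4, 102 and 140.2 CPM with siATF4-3. All PERKi libraries lay above all ATF4 siRNA libraries, and siATF4-2 replicate 4 held the most ATF4 mRNA of the 8. The difference was 3.11 ± 0.12 (log2, adjusted p = 4.9e-16). ATF4 averaged 1510.2 ± 37.4 CPM in TM siCtrl libraries and 605 ± 85.2 CPM in DMSO libraries (SD, n = 4 each), so with the inhibitor the mRNA stood at -0.09 ± 0.15 relative to TM siCtrl (adjusted p = 0.66), while with siATF4-2 and siATF4-3 it stood at -2.67 ± 0.16 and -3.73 ± 0.17. GSK2606414 blocks PERK activity, so its gene's mRNA need not change. EIF2AK3 was at 120.1, 124, 125 and 130.4 CPM with the inhibitor, against 98.0, 108, 92.5 and 103 CPM with siATF4-2 and 79.2, 80.1, 80.5 and 83.6 CPM with siATF4-3, a difference of 0.47 ± 0.05. EIF2AK3 mRNA is thus no check of the inhibitor's label. FAM129A, a gene that tunicamycin raises and that encodes the stress protein Niban, was at 249, 261, 248 and 231 CPM with the inhibitor, against 51.5, 57.5, 36.7 and 75.5 CPM with siATF4-2 and 14.4, 12.9, 8.87 and 22.2 CPM with siATF4-3 (difference 3.12 ± 0.15). Its groups did not overlap, and its level with the inhibitor differed from TM siCtrl by 0.40 ± 0.16 (adjusted p = 0.057).

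**Figure D1:**
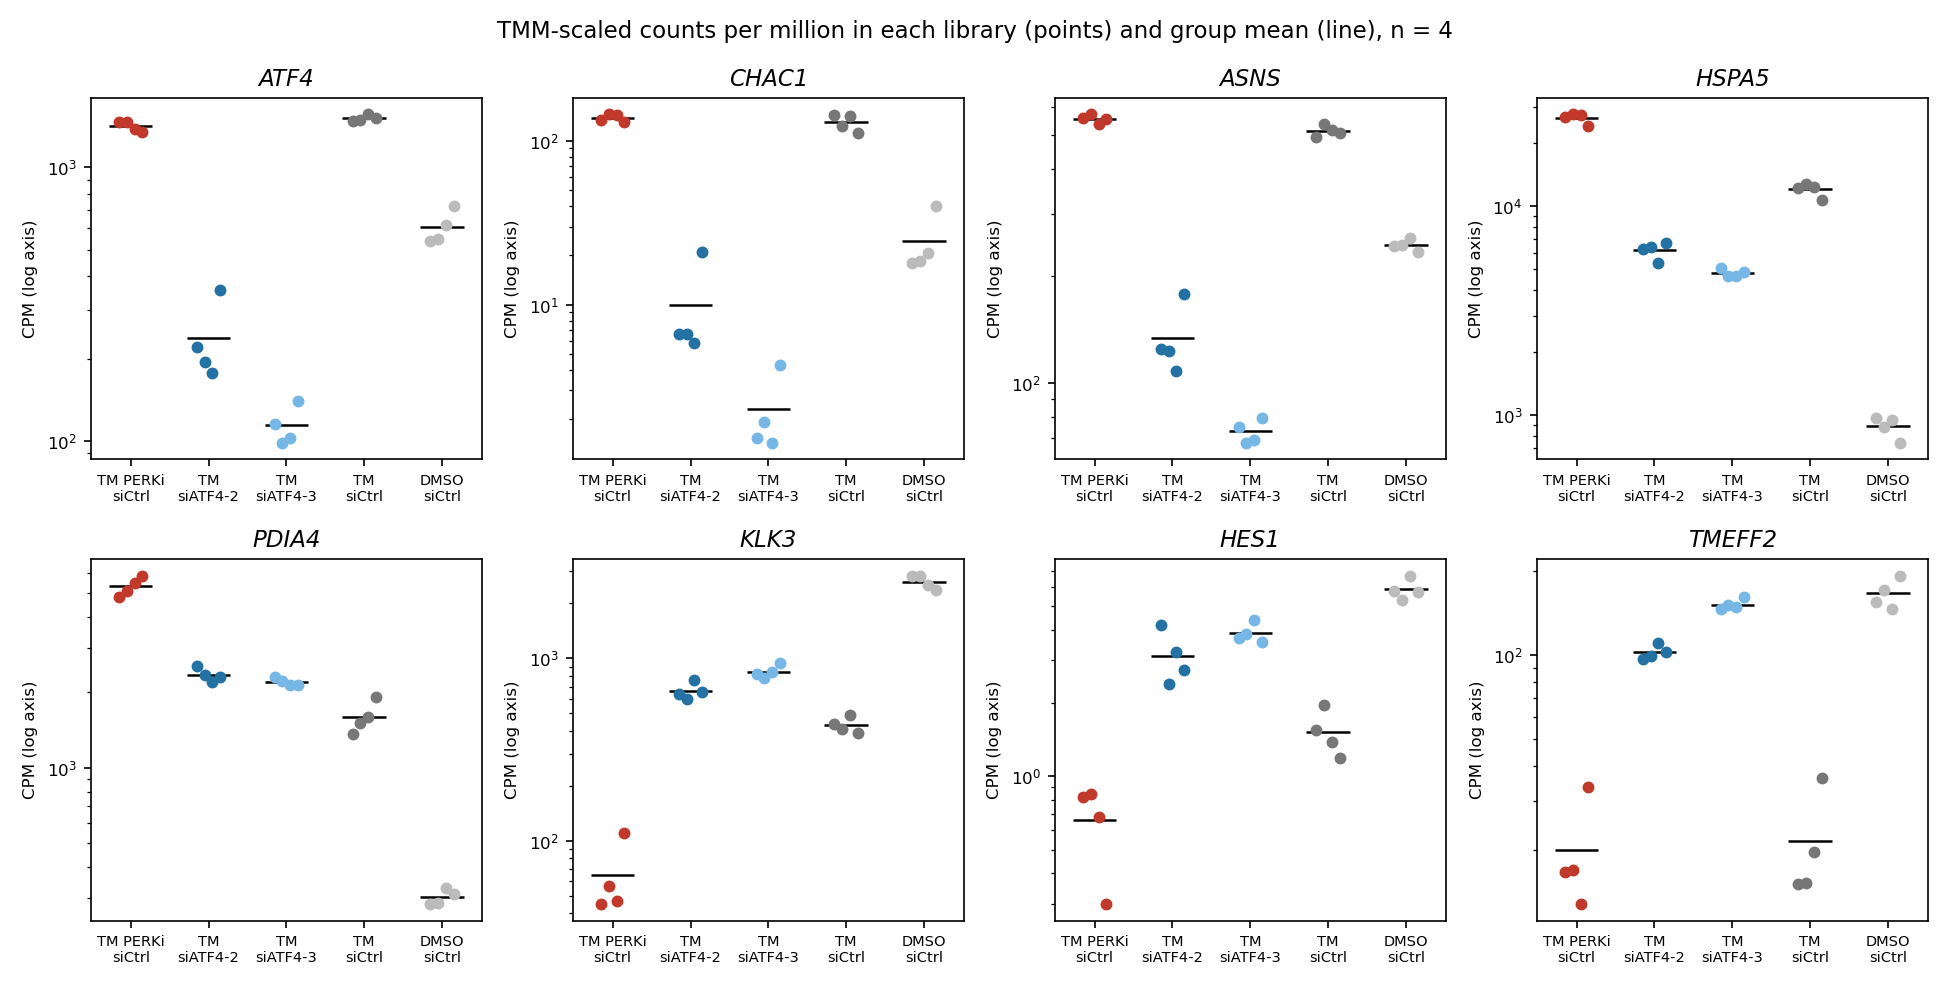
TMM-scaled CPM (log axis, a separate scale per gene) of 8 genes in each library of 5 groups, with a line at the group mean. The 4 PERKi libraries lie above all 8 ATF4 siRNA libraries for ATF4, CHAC1, ASNS, HSPA5 and PDIA4 and below them for KLK3, HES1 and TMEFF2. CHAC1, KLK3, HES1 and TMEFF2 stand in a ranking, described below, that required no overlap between these libraries.

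The 2 perturbations left cells with very different transcriptomes. With the inhibitor 4624 genes were higher than with the ATF4 siRNAs (32.3% of the genes tested) and 4762 were lower (33.3%), 65.6% in all. At least 2-fold differences were called for 941 higher genes (6.57%) and 637 lower genes (4.45%), and 269 higher genes and 65 lower genes passed 4-fold. Large differences were thus more often in the direction of higher levels with the inhibitor, although the median over all genes was -0.01. Against siATF4-2 alone 4080 genes were higher (28.5%) and 4337 lower (30.3%), 58.8% in all, and against siATF4-3 alone 4541 were higher (31.7%) and 4648 lower (32.5%), 64.2% in all. Called in the mean and against each oligo with the same sign were 3726 higher genes (26.0%) and 3903 lower genes (27.3%). In 3205 genes (22.4%) every PERKi library lay above every ATF4 siRNA library, and in 3266 genes (22.8%) every one lay below. With about 2 genes in 3 called, a call by itself says little, and the sizes of the differences are what separates the genes described below.

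Genes were then grouped by their response to tunicamycin, a grouping chosen after the data were seen. That response was taken from TM siCtrl and DMSO siCtrl libraries, none of which is among the 12 compared. Tunicamycin raised 4909 genes (34.3% of those tested) and lowered 4974 (34.7%), 69.0% in all. Of the 1215 genes it raised at least 2-fold (8.49%), 1074 (88.4%) were higher with the inhibitor than with the ATF4 siRNAs and 25 (2.06%) were lower, with a median difference of 1.00. Of the 3694 genes it raised by less, 60.6% were higher and 11.3% lower, with a median of 0.25. Genes with no called response to tunicamycin split evenly, 21.6% higher and 23.8% lower of 4431, with a median of 0.00. Of the 1041 genes that tunicamycin lowered at least 2-fold (7.27%), 46 (4.42%) were higher with the inhibitor and 686 (65.9%) were lower, with a median of -0.58. Among the 3933 it lowered by less, 7.88% were higher and 65.5% lower, with a median of -0.30. Most genes that tunicamycin raised were thus higher with the inhibitor than with ATF4 depleted, and most that it lowered were lower. The median in the class raised at least 2-fold was 0.87 against siATF4-2 and 1.15 against siATF4-3.

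**Figure D2:**
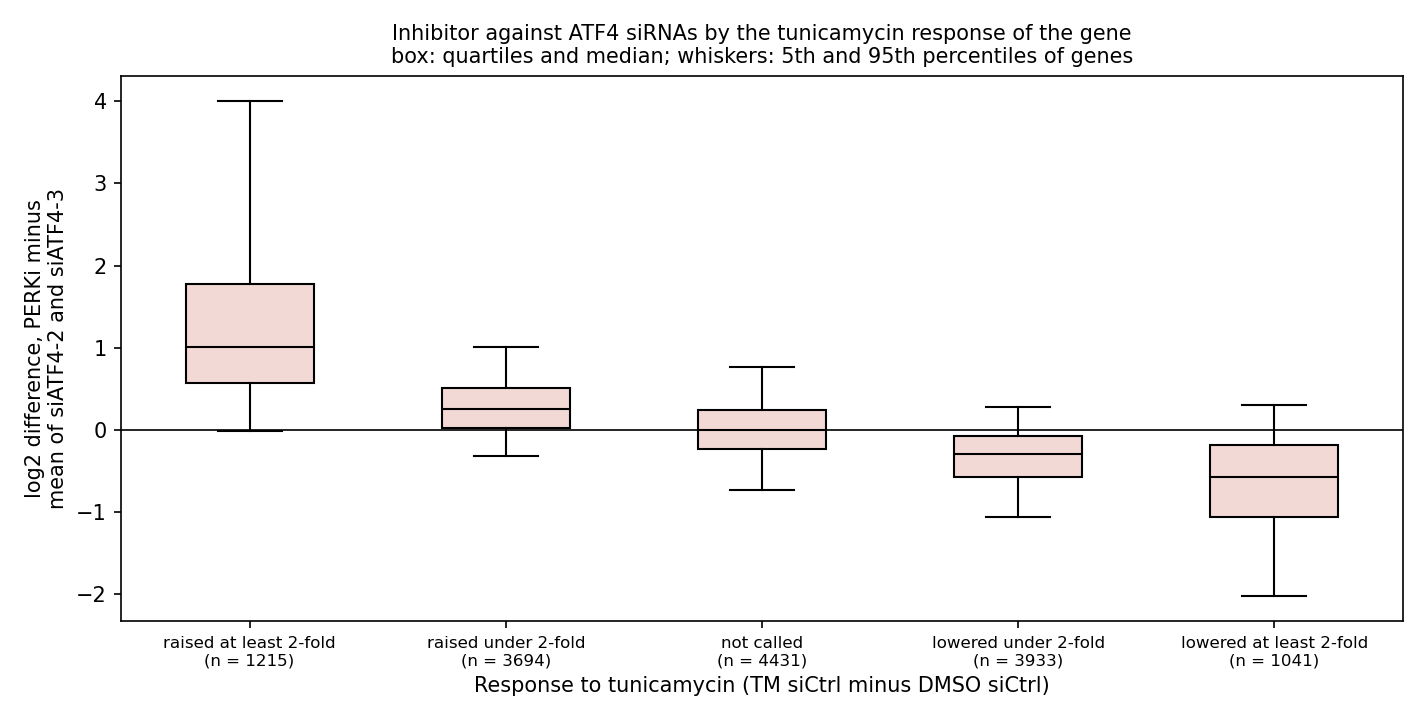
Log2 difference between the inhibitor and the mean of the 2 ATF4 siRNA groups (vertical axis) for genes grouped by their response to tunicamycin in TM siCtrl against DMSO siCtrl libraries (horizontal axis). Boxes give quartiles and median and whiskers the 5th and 95th percentiles of genes, and the medians run down from 1.00 in the class raised at least 2-fold to -0.58 in the class lowered at least 2-fold.

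Genes were ranked among those called in the mean and against each oligo with the same sign, with no overlap between groups, a mean log2 CPM of at least 1 over the 12 libraries and a symbol other than those of unnamed, antisense and non-coding loci. The 12 most higher with the inhibitor in that ranking were FIBIN, FLRT1, CHAC1, GPR1, LCN2, TSLP, BCL11B, HOPX, S100P, LAMP3, LURAP1L and AGPAT9. All 12 were raised by tunicamycin in control cells, and in all 12 the difference was larger against siATF4-3 than against siATF4-2. The 2 oligo groups were themselves called different in 8 of these 12. CHAC1 (hg19 chr15:41245636-41248717, plus strand), a gamma-glutamylcyclotransferase that breaks down glutathione, was at 134, 145, 144 and 131 CPM with the inhibitor, against 6.63, 6.59, 5.83 and 21.0 CPM with siATF4-2 and 1.53, 1.92, 1.43 and 4.29 CPM with siATF4-3. The groups lay far apart, with siATF4-2 replicate 4 the nearest to the inhibitor, and the fitted difference was 4.85 ± 0.25 (adjusted p = 6.2e-14; 5.42 without replicate 4 of both oligos). FIBIN, a secreted protein first described in fin development of fish, was at 32.9, 38.0, 41.1 and 35.1 CPM with the inhibitor, against 0.736, 0.941, 1.40 and 4.16 CPM and 0.0900, 0.0711, 0.179 and 0.728 CPM with the oligos siATF4-2 and siATF4-3. Its difference was 5.71 ± 0.29, 6.32 without siATF4-3 replicate 4 and 6.71 without replicate 4 of both oligos. LCN2, the iron-siderophore carrier lipocalin 2, was at 18.0, 17.1, 21.6 and 21.8 CPM with the inhibitor, against 1.06, 0.724, 1.18 and 3.52 CPM with siATF4-2 and 0.270, 0.426, 0.179 and 0.971 CPM with siATF4-3, a difference of 4.49 ± 0.24 that stood at 5.15 without replicate 4 of both oligos. S100P, a calcium-binding protein, differed by 4.24 ± 0.19, and by 4.84 without those 2 libraries.

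The others of the 12 have varied roles. TSLP, a cytokine of epithelia, averaged 22.5 ± 2.78 CPM with the inhibitor, against 1.72 ± 0.952 CPM with siATF4-2 and 0.699 ± 0.388 CPM with siATF4-3 (SD, n = 4 each; difference 4.35 ± 0.17). LAMP3, a lysosome-associated membrane protein, averaged 14.2 ± 2.81 CPM with the inhibitor, against 0.952 ± 0.618 CPM and 0.617 ± 0.389 CPM with siATF4-2 and siATF4-3 (difference 4.21 ± 0.20). The membrane protein FLRT1 differed by 4.99 ± 0.16, the receptor GPR1 by 4.73 ± 0.18, the transcription factor BCL11B by 4.28 ± 0.17 and the homeodomain protein HOPX by 4.26 ± 0.17. LURAP1L differed by 4.11 ± 0.19 and AGPAT9, an acyltransferase of glycerolipid synthesis, by 3.88 ± 0.16. Relative to TM siCtrl, the 12 genes lay between -0.54 and 1.06 with the inhibitor, between -4.51 and -2.09 with siATF4-2 and between -6.29 and -3.52 with siATF4-3; these 3 comparisons use the same 4 TM siCtrl libraries. Genes of lower abundance, such as SERPINA3 and AGT below, stood outside the ranking with differences as large.

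Within the same limits the 12 genes most lower with the inhibitor were KLK3, APLN, SOX8, FAM65B, TMEFF2, GPR158, SLC6A6, PKP1, DGAT2, CBLN2, HES1 and RTN4RL1, and all 12 were lowered by tunicamycin in control cells. KLK3 (hg19 chr19:51358171-51364020, plus strand), which encodes prostate-specific antigen, was at 44.9, 56.6, 46.5 and 109.8 CPM with the inhibitor, against 641, 602, 757 and 652 CPM with siATF4-2 and 819, 782, 836 and 937 CPM with siATF4-3. Every PERKi library lay below every ATF4 siRNA library, which the ranking required, and PERKi replicate 4 was the highest of its group. The difference was -3.53 ± 0.26 (adjusted p = 3.1e-11). KLK3 averaged 431 ± 44.2 CPM in TM siCtrl libraries and 2634 ± 232 CPM in DMSO libraries (SD, n = 4 each), so its level was below TM siCtrl with the inhibitor (-2.74 ± 0.27) and above it with siATF4-2 (0.62 ± 0.24) and siATF4-3 (0.97 ± 0.24). TMEFF2, a membrane protein of prostate and brain, was at 16.8, 17.0, 12.8 and 33.7 CPM with the inhibitor, against 97.3, 99.7, 110.5 and 102 CPM with siATF4-2 and 146, 152, 149 and 161 CPM with siATF4-3, a difference of -2.63 ± 0.23. HES1, a repressor that Notch signalling induces, was at 0.822, 0.849, 0.680 and 0.299 CPM with the inhibitor, against 4.17, 2.39, 3.25 and 2.72 CPM with siATF4-2 and 3.69, 3.84, 4.39 and 3.56 CPM with siATF4-3, a difference of -2.40 ± 0.23 at low levels in all libraries.

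DGAT2, the last enzyme of triglyceride synthesis, averaged 1.29 ± 0.614 CPM with the inhibitor, against 6.41 ± 0.977 CPM with siATF4-2 and 8.18 ± 0.630 CPM with siATF4-3 (SD, n = 4 each; difference -2.46 ± 0.21). APLN, the peptide hormone apelin, averaged 5.39 ± 1.30 CPM with the inhibitor, against 30.9 ± 1.82 CPM and 41.6 ± 5.16 CPM with siATF4-2 and siATF4-3 (difference -2.74 ± 0.19). The differences were -2.68 ± 0.19 for the transcription factor SOX8, -2.64 ± 0.15 for FAM65B, -2.58 ± 0.17 for the orphan receptor GPR158, -2.56 ± 0.17 for the taurine transporter SLC6A6, -2.48 ± 0.22 for the desmosomal plakophilin PKP1 and -2.40 ± 0.19 for RTN4RL1. CBLN2, a secreted synaptic protein with under 6 CPM in any of the 12 libraries, differed by -2.43 ± 0.32; without PERKi replicate 4, which held 1.57 CPM, the difference was -3.42. Relative to TM siCtrl the 12 genes lay between -2.74 and 0.25 with the inhibitor, between 0.62 and 2.25 with siATF4-2 and between 0.97 and 3.17 with siATF4-3.

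**Figure D3:**
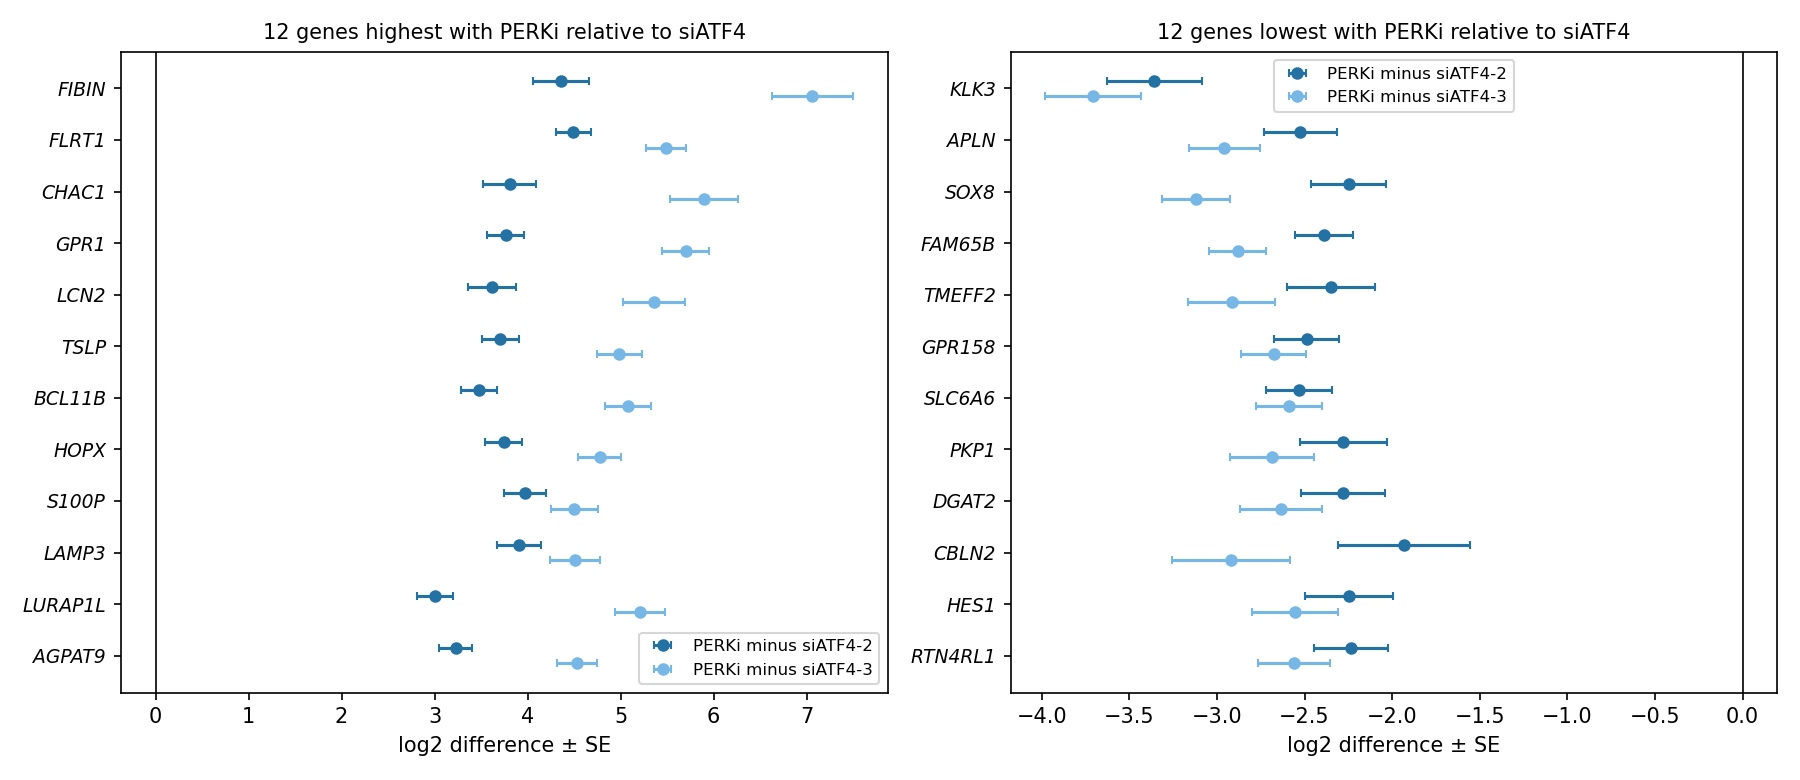
Log2 difference ± SE of the PERKi group against siATF4-2 and against siATF4-3 (horizontal axis) for the 12 genes most higher and the 12 most lower with the inhibitor in the ranking limited by abundance and overlap. For every one of the 24 genes the point against siATF4-3 lies farther from 0 than the point against siATF4-2. Both points lie on the same side of 0 because the ranking admitted only genes called against each oligo with the same sign. The 2 oligo groups were themselves called different in only 8 of the 12 higher genes and 3 of the 12 lower genes.

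The transcription factors of the stress response were mostly higher with the inhibitor. Of 20 tested ATF, C/EBP and related factors, 15 were higher and 3 lower, with a median of 0.80, beside 32.3% higher and 33.3% lower of all genes. Those shares are also the background for the later list counts of the inhibitor against the ATF4 siRNAs. The 15 include ATF4 itself, whose lower level with its own siRNAs follows from the design. ATF3, an early stress factor, was at 778, 802, 851 and 700.1 CPM with the inhibitor, against 138, 145, 118 and 169 CPM with siATF4-2 and 65.8, 67.1, 60.6 and 64.3 CPM with siATF4-3. The groups did not overlap and the difference was 3.03 ± 0.12. DDIT3, which encodes CHOP, a factor linked to cell death in lasting ER stress, was at 681, 742, 726 and 777 CPM with the inhibitor, against 248, 268, 238 and 309 CPM with siATF4-2 and 159, 162, 143 and 169 CPM with siATF4-3 (difference 1.83 ± 0.12). TRIB3, a pseudokinase that restrains ATF4 and AKT, differed by 1.83 ± 0.11, and JDP2, a repressor of AP-1, by 2.19 ± 0.12. ATF3 and DDIT3 were also above TM siCtrl with the inhibitor, by 1.36 ± 0.14 and 1.31 ± 0.14, whereas TRIB3 was at 0.11 ± 0.13 (adjusted p = 0.54). Relative to TM siCtrl, ATF3 was at -1.10 ± 0.14 with siATF4-2 and -2.25 ± 0.15 with siATF4-3, and TRIB3 at -1.01 ± 0.13 and -2.43 ± 0.14. DDIT3 was at -0.15 ± 0.14 with siATF4-2 (adjusted p = 0.39) and at -0.89 ± 0.15 with siATF4-3.

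Of 34 tested targets of ATF4 and CHOP, 33 were higher with the inhibitor and 24 of them at least 2-fold, with a median of 1.52. The exception was TXNIP, an inhibitor of thioredoxin, at -0.38 ± 0.10. SESN2, a leucine sensor that restrains mTORC1, was at 223, 222, 227 and 215 CPM with the inhibitor, against 68.9, 60.5, 53.2 and 77.2 CPM with siATF4-2 and 27.2, 23.6, 23.2 and 29.9 CPM with siATF4-3 (difference 2.43 ± 0.11). FGF21, a hormone released under metabolic stress, had 55, 44, 48 and 63 counts in the PERKi libraries, against 2, 0, 0 and 3 counts with siATF4-2 and 0, 0, 0 and 0 with siATF4-3. Its mean with the inhibitor, 4.18 CPM, was at least 67.9-fold higher than the level that 3 counts over the siATF4-3 group would give. Against TM siCtrl, 18 members were higher and 5 lower in PERKi libraries, 0 higher and 28 lower in siATF4-2 libraries, and 0 higher and 32 lower in siATF4-3 libraries. Over all genes those comparisons called 18.2% higher and 17.5% lower with the inhibitor (35.7% in all), 28.4% higher and 27.2% lower with siATF4-2 (55.6%), and 31.2% higher and 30.7% lower with siATF4-3 (61.9%). The 3 comparisons share the TM siCtrl libraries.

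**Figure D4:**
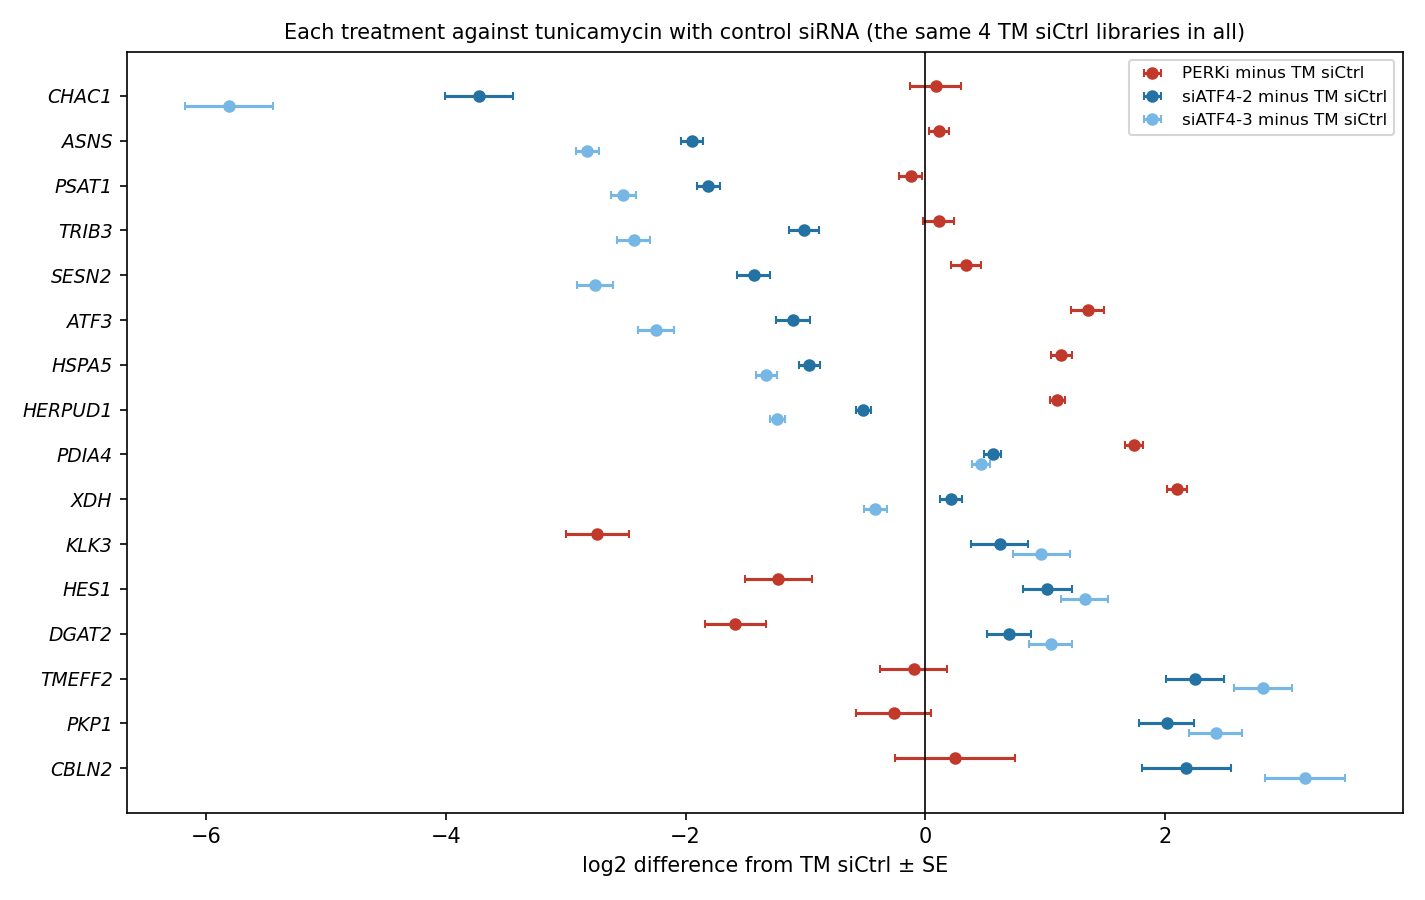
Log2 difference ± SE from TM siCtrl (horizontal axis) for 16 genes with the inhibitor, siATF4-2 and siATF4-3. CHAC1, ASNS, PSAT1 and TRIB3 lie near 0 with the inhibitor and below 0 with both oligos, ATF3, HSPA5 and HERPUD1 lie above 0 with the inhibitor and below 0 with both oligos, and KLK3, HES1 and DGAT2 lie below 0 with the inhibitor and above 0 with both oligos.

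Promoter sequence gives some context for these genes. ATF4, together with C/EBP partners, binds a composite element whose core is written here as TGATGNAA (the C/EBP-ATF response element, CARE), and ATF6 with NF-Y binds the ER stress response element (ERSE), written here as CCAAT and CCACG with any 9 bases between. Both strands of RefSeq windows from 250 bases before to 50 after each gene's start (build GRCh38.p14) were searched for these and for TGACGTGG (the unfolded protein response element, UPRE, a site of XBP1 and ATF6), and 11097 of the 14314 tested genes had a window. CARE letters stood in 39 of 718 windows of genes at least 2-fold higher with the inhibitor (5.43%), in 8 of 451 at least 2-fold lower (1.77%), in 153 of 9928 other tested genes (1.54%) and in 3.67% of all 27305 windows. ERSE letters stood in 5 of the 718 (0.696%), in 0 of the 451, in 0.0907% of the other tested genes and in 0.0806% of all windows. UPRE letters stood in 0.836% of the 718, in 0 of the 451, in 0.967% of the other tested genes and in 0.795% of all windows. A match is a stretch of letters and no evidence of binding. The sequences below are those of the higher named genes with a match and the largest differences (FGF21, CHAC1 and AGT), the 1 lower named gene with a match (SPG7), and HSPA5 and HERPUD1, which were added after their values were seen as the chaperone and degradation genes described below; capitals mark the matched letters on either strand. The windows lie at chr19:48755274-48755573, plus strand (FGF21), chr15:40953221-40953520, plus strand (CHAC1), chr1:230714073-230714372, minus strand (AGT), chr16:89508138-89508437, plus strand (SPG7), chr9:125241294-125241593, minus strand (HSPA5) and chr16:56931892-56932191, plus strand (HERPUD1). The match is CARE in FGF21, CHAC1, AGT and HERPUD1, ERSE in HSPA5 and UPRE in SPG7.
FGF21: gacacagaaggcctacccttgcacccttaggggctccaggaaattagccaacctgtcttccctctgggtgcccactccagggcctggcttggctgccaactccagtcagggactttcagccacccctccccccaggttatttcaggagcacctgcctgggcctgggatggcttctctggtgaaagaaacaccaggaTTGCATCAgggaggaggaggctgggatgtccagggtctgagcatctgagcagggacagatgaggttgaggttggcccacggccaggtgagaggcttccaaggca
CHAC1: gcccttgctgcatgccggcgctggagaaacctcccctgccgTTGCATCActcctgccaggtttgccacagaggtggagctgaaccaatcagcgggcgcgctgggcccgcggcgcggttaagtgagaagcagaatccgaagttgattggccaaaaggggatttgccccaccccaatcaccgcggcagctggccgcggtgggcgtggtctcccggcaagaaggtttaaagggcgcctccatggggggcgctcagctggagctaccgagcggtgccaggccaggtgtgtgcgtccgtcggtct
AGT: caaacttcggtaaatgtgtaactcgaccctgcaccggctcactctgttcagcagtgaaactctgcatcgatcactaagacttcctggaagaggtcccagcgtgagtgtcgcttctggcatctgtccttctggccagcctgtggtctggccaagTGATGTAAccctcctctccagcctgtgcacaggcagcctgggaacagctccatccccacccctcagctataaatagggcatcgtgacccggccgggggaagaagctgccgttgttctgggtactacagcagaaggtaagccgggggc
SPG7: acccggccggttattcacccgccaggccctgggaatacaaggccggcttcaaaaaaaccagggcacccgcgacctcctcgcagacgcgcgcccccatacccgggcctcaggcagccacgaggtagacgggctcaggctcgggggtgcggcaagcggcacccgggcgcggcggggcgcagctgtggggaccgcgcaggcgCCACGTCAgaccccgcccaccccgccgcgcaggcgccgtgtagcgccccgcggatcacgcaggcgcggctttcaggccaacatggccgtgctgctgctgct
HSPA5: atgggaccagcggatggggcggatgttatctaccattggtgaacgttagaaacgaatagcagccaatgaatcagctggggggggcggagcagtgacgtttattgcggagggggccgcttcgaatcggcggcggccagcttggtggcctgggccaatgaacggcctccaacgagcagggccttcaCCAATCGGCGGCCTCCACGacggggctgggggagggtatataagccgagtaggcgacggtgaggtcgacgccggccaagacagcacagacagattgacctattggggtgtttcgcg
HERPUD1: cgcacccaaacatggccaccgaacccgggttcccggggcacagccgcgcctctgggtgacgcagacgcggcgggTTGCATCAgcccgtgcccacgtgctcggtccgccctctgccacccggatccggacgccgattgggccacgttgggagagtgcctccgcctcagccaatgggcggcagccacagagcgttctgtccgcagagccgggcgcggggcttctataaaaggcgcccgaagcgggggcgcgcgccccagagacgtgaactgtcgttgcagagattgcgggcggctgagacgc

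Genes of amino acid supply were more often higher than lower with the inhibitor. Of 23 tested enzymes of amino acid synthesis and one-carbon metabolism, 14 were higher and 8 lower (median 0.62), and 8 were higher at least 2-fold against 0 lower. ASNS, asparagine synthetase, was at 558, 572, 538 and 556 CPM with the inhibitor, against 125, 123, 108 and 178 CPM with siATF4-2 and 75.0, 67.6, 69.0 and 79.7 CPM with siATF4-3. The difference was 2.50 ± 0.07 (adjusted p = 1.8e-20), and relative to TM siCtrl the inhibitor stood at 0.11 ± 0.08 (adjusted p = 0.32). The serine synthesis enzymes PHGDH and PSAT1 differed by 2.10 ± 0.08 and 2.04 ± 0.08, the mitochondrial folate enzyme MTHFD2 by 2.37 ± 0.06 and CTH, which makes cysteine, by 2.74 ± 0.08. PHGDH and PSAT1 stood at 0.00 ± 0.09 and -0.12 ± 0.09 relative to TM siCtrl with the inhibitor, while CTH and MTHFD2 stood above it, at 0.78 ± 0.08 and 0.56 ± 0.07.

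Of 18 tested amino acid transporters, 13 were higher and 4 lower (median 0.74). The counts of this paragraph stand beside 32.3% higher and 33.3% lower of all genes. SLC7A11, which imports cystine for glutathione, was at 1309.7, 1328, 1334 and 1279 CPM with the inhibitor, against 255, 284, 191 and 444 CPM with siATF4-2 and 109.8, 106, 91.1 and 164 CPM with siATF4-3 (difference 2.82 ± 0.16). The leucine carrier SLC7A5 differed by 2.62 ± 0.12, the glycine carrier SLC6A9 by 3.12 ± 0.13 and the glutamine carrier SLC1A5 by 1.89 ± 0.09; the taurine carrier SLC6A6, above, went the other way. Of 20 cytosolic aminoacyl-tRNA synthetases, 14 were higher and 5 lower (median 0.64), led by GARS at 2.09 ± 0.08, WARS at 1.45 ± 0.04, CARS at 1.44 ± 0.06 and YARS at 1.21 ± 0.05. Translation initiation factors showed no such excess: 13 of 38 were higher (34.2%, near the share over all genes) and 17 lower (44.7%). Among them EIF4EBP1, a repressor of cap-dependent translation, was higher (1.45 ± 0.05) and EIF3B, a subunit of eIF3, lower (-0.94 ± 0.05). Of 58 cytosolic ribosomal protein genes 10 were higher and 27 lower, all by less than 2-fold, with a median of -0.05; the number lower was 17 under upper-quartile scaling.

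Genes of ER folding and quality control formed the other large block. Of 32 ER chaperones and folding enzymes, 28 were higher with the inhibitor and 0 lower, each of the 28 also against each oligo (median 0.87); CANX, SIL1, TXNDC5 and QSOX1 were not called. HSPA5 (hg19 chr9:127997127-128003666, minus strand), the ER chaperone BiP, was at 26882, 27525, 27284 and 24199 CPM with the inhibitor, against 6254, 6402, 5335 and 6682 CPM with siATF4-2 and 5044, 4652, 4653 and 4865 CPM with siATF4-3. The groups lay far apart, and the difference was 2.28 ± 0.07 (adjusted p = 9.7e-19). HSPA5 averaged 12069 ± 911 CPM in TM siCtrl libraries and 886 ± 105 CPM in DMSO libraries (SD, n = 4 each), between the inhibitor (1.13 ± 0.09 relative to TM siCtrl) and the oligos (-0.97 ± 0.09 with siATF4-2 and -1.33 ± 0.09 with siATF4-3). The co-chaperone DNAJB9 differed by 1.55 ± 0.05, the oxidase ERO1LB by 1.56 ± 0.07 and the disulfide isomerase AGR2 by 1.88 ± 0.20.

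PDIA4, another disulfide isomerase, took a different course. It was at 4816, 5101, 5506 and 5867 CPM with the inhibitor, against 2556, 2358, 2195 and 2311 CPM with siATF4-2 and 2304, 2212, 2151 and 2134 CPM with siATF4-3 (difference 1.23 ± 0.06). All 3 treatments stood above TM siCtrl, at 1.74 ± 0.07 with the inhibitor, 0.56 ± 0.07 with siATF4-2 and 0.46 ± 0.07 with siATF4-3. XDH, xanthine dehydrogenase, was at 62.3, 70.7, 64.6 and 65.9 CPM with the inhibitor, against 18.0, 20.4, 15.2 and 17.9 CPM with siATF4-2 and 12.1, 11.7, 9.32 and 12.9 CPM with siATF4-3 (difference 2.20 ± 0.07). Its values relative to TM siCtrl were 2.10 ± 0.08 with the inhibitor, 0.22 ± 0.09 with siATF4-2 and -0.42 ± 0.10 with siATF4-3.

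Of 27 genes of ER-associated degradation, which returns misfolded proteins to the cytosol, 20 were higher and 3 lower (median 0.61). HERPUD1, a scaffold of the degradation complex, was at 2591, 2695, 2604 and 2644 CPM with the inhibitor, against 906, 871, 766 and 886 CPM with siATF4-2 and 554, 514, 487 and 528 CPM with siATF4-3 (difference 1.98 ± 0.05). SEL1L, the adaptor of the ligase HRD1, differed by 2.15 ± 0.07, the derlin DERL3 by 2.59 ± 0.12 and EDEM1, which recognises trimmed glycans, by 1.61 ± 0.05. DERL3 was 2.08 ± 0.14 above TM siCtrl with the inhibitor, the largest such rise among the genes of this paragraph. Against TM siCtrl, 21 of the 32 chaperone and folding genes were higher and 2 lower in PERKi libraries, 3 higher and 22 lower in siATF4-2 libraries, and 2 higher and 26 lower in siATF4-3 libraries. The shares of all genes were 18.2% higher and 17.5% lower with the inhibitor, 28.4% and 27.2% with siATF4-2, and 31.2% and 30.7% with siATF4-3.

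Genes of ER to Golgi transport and of the translocon differed by small but regular amounts: 46 of 50 were higher with the inhibitor, 2 were lower (SEC24C and SRP9) and none reached 2-fold, with a median of 0.39. MCFD2, a cargo receptor subunit, differed by 0.95 ± 0.08, and the coat proteins SEC24D and SEC31A by 0.80 ± 0.05 and 0.75 ± 0.04. Of 38 N-glycosylation and hexosamine enzymes 23 were higher and 8 lower, led by GFPT1, the entry enzyme of the hexosamine pathway, at 1.26 ± 0.07. Among 17 stress sensors, eIF2 kinases and phosphatase subunits 11 were higher and 3 lower. PPP1R15A (GADD34), which recruits the phosphatase that removes the eIF2 alpha mark, was at 41.0, 37.3, 42.6 and 37.1 CPM with the inhibitor, against 10.7, 9.99, 9.15 and 12.2 CPM with siATF4-2 and 6.93, 7.46, 8.07 and 6.96 CPM with siATF4-3 (difference 2.17 ± 0.08). The sensors ERN1 and ATF6 differed by 1.43 ± 0.07 and 1.02 ± 0.05, and XBP1, whose mRNA is spliced by IRE1, by 0.90 ± 0.04 in total counts, which do not tell spliced from unspliced. EIF2AK4 (GCN2) was lower, at -0.84 ± 0.04.

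**Figure D5:**
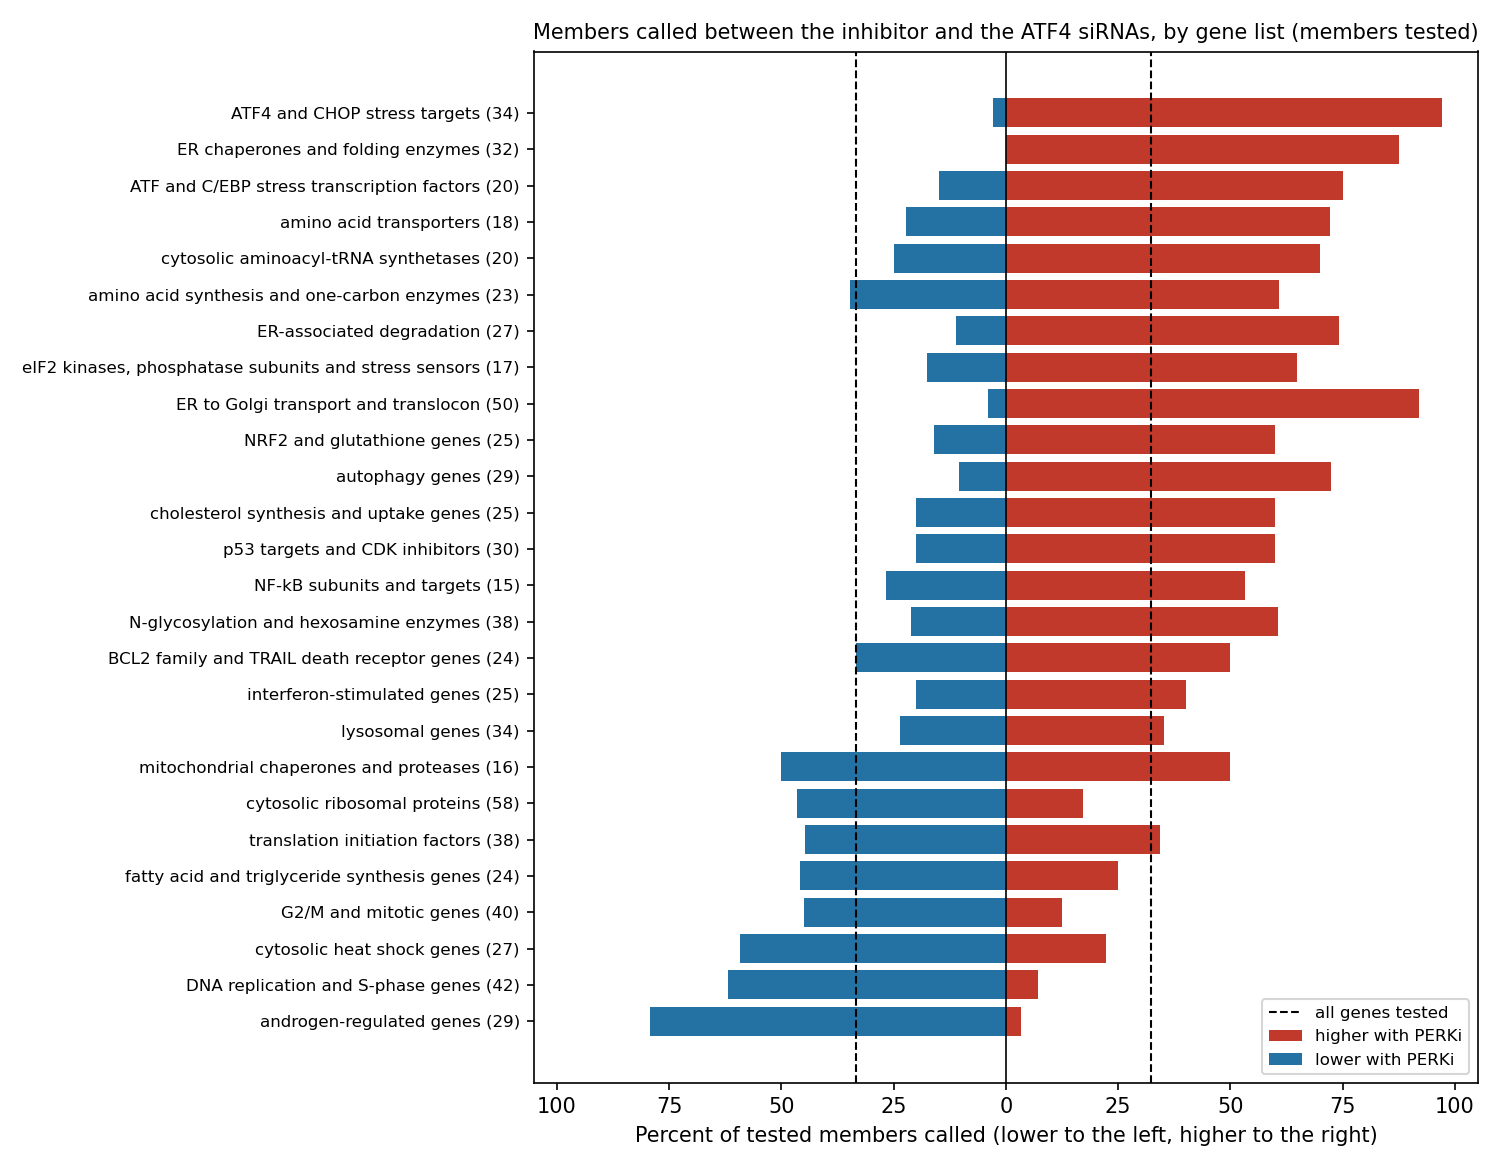
Percent of the tested members of each gene list (number tested in brackets, lists with at least 15 tested, ordered by median difference) called higher with the inhibitor (right) and lower (left) than with the ATF4 siRNAs. Dashed lines mark all genes tested, 32.3% higher and 33.3% lower; 97.1% of the ATF4 and CHOP targets were higher and 79.3% of the androgen-regulated genes lower.

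Redox, autophagy and secreted-factor genes leaned the same way. Of 25 NRF2 and glutathione genes 15 were higher and 4 lower; apart from SLC7A11, ME1 (malic enzyme, a source of NADPH) differed by 1.55 ± 0.06, the haem-degrading HMOX1 by 1.49 ± 0.11 and the glutathione synthesis subunit GCLM by 1.37 ± 0.06. Of 29 autophagy genes 21 were higher and 3 lower. MAP1LC3B, whose product coats autophagosomes, was at 317, 323, 324 and 282 CPM with the inhibitor, against 65.4, 68.6, 48.7 and 81.9 CPM with siATF4-2 and 36.6, 34.8, 37.5 and 41.8 CPM with siATF4-3 (difference 2.64 ± 0.10), and WIPI1, a lipid-binding protein of early autophagosomes, differed by 2.31 ± 0.05. Of 34 lysosomal genes 12 were higher, near the share over all genes, and 8 lower. Of 13 secreted hormones and growth factors with enough counts, 9 were higher and 1 lower. SERPINA3, a protease inhibitor, was at 20.8, 18.0, 23.7 and 18.9 CPM with the inhibitor, against 0.573, 0.652, 0.590 and 2.16 CPM with siATF4-2 and 0.270, 0, 0 and 0.0809 CPM with siATF4-3. Its fitted difference was 6.09 ± 0.25, and 6.77 without siATF4-3 replicate 1. The siATF4-3 libraries held few or no counts of SERPINA3, so the size of this fold is uncertain. AGT, angiotensinogen, was at 6.67, 4.67, 9.52 and 7.61 CPM with the inhibitor, against 0.245, 0.145, 0.295 and 0.640 CPM with siATF4-2 and 0.0900, 0.213, 0.179 and 0.243 CPM with siATF4-3 (difference 4.82 ± 0.40).

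Cholesterol genes leaned higher with the inhibitor and fatty acid genes were mixed, beside 32.3% higher and 33.3% lower of all genes. Of 25 cholesterol synthesis and uptake genes 15 were higher with the inhibitor and 5 lower (3 lower with DESeq2, under upper-quartile scaling, and without any 1 of PERKi replicates 1, 2 and 3 or siATF4-2 replicate 4). HMGCS1, the enzyme that makes HMG-CoA, was at 337, 305, 319 and 355 CPM with the inhibitor, against 132, 145, 126 and 191 CPM with siATF4-2 and 154, 143, 158 and 182 CPM with siATF4-3 (difference 1.10 ± 0.10), and MSMO1 and SC5D differed by 1.24 ± 0.09 and 1.10 ± 0.04. Of 24 fatty acid and triglyceride genes 6 were higher (25%), 11 were lower (45.8%) and 7 were not called, with a median of -0.15. FASN, fatty acid synthase, was at 387, 378, 373 and 498 CPM with the inhibitor, against 1295, 1036, 1314 and 1261 CPM with siATF4-2 and 1726, 1787, 1848 and 2186 CPM with siATF4-3 (difference -1.89 ± 0.12). FASN was at -0.28 ± 0.13 relative to TM siCtrl with the inhibitor (adjusted p = 0.11) and at 1.31 ± 0.13 and 1.93 ± 0.13 with siATF4-2 and siATF4-3. ACACB, the mitochondrial acetyl-CoA carboxylase, was higher with the inhibitor (1.47 ± 0.08).

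Androgen-regulated genes were lower with the inhibitor in 23 of 29 cases and higher in 1, NDRG1, with a median of -0.50. In the comparison with the ATF4 siRNAs, 33.3% of all genes were lower and 32.3% higher. KLK2, a kallikrein, was at 44.2, 49.7, 39.4 and 58.2 CPM with the inhibitor, against 93.3, 80.8, 109.7 and 104 CPM with siATF4-2 and 146, 151, 167 and 184 CPM with siATF4-3 (difference -1.39 ± 0.13). HOXB13, a homeobox factor of the prostate, differed by -1.95 ± 0.10, the membrane protease TMPRSS2 by -1.69 ± 0.13 and PMEPA1, which damps TGF-beta signalling, by -1.70 ± 0.13. Against TM siCtrl, 2 members were higher and 20 lower in PERKi libraries, 10 higher and 4 lower in siATF4-2 libraries, and 20 higher and 2 lower in siATF4-3 libraries. The list medians were -0.30, 0.04 and 0.34. Over all genes 18.2% were higher and 17.5% lower with the inhibitor, 28.4% and 27.2% with siATF4-2, and 31.2% and 30.7% with siATF4-3. The 10 of 29 higher with siATF4-2 were thus near the share over all genes. FOXA1, a pioneer transcription factor of the prostate, differed by -0.67 ± 0.04. Of 7 tested AKR1C and UGT2B genes, whose products inactivate steroids and whose near-identical members can share reads, 2 were higher (AKR1C1 at 3.61 ± 0.33, 4.29 without replicate 4 of both oligos, and AKR1C2 at 3.30 ± 0.24) and 5 lower, among them UGT2B11 (-2.23 ± 0.43) and UGT2B15 (-1.55 ± 0.29). Of the 5, only UGT2B11 and UGT2B15 were also called lower against each oligo. The 5 became 3 without PERKi replicate 4, siATF4-3 replicate 1 or siATF4-3 replicate 2 and with limma-voom, and 2 without PERKi replicate 3. Of 7 aryl hydrocarbon receptor genes 3 were higher and 2 lower (1 lower under 10 alternatives). AHR, the receptor itself, differed by 1.05 ± 0.12. CYP1A1, a monooxygenase that the receptor induces, averaged 0.812 ± 0.495 CPM with the inhibitor, against 2.69 ± 1.20 CPM with siATF4-2 and 2.06 ± 1.47 CPM with siATF4-3 (SD, n = 4 each; difference -1.54 ± 0.44), and its groups overlapped.

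Prostate luminal markers share members with the androgen-regulated list, KLK3 and HOXB13 among them, so the 2 lists are not independent. Of 10, 7 were lower and 2 higher, and their summed level was 2972 to 3286 CPM with the inhibitor, against 4183 to 4459 CPM with siATF4-2 and 4401 to 4561 CPM with siATF4-3. Markers of other cell types were few: 6 of 13 neuroendocrine markers, 4 of 8 basal, 5 of 12 fibroblast and 2 of 8 leukocyte markers had enough counts, and CHGA, KRT5, TP63, COL1A2, DCN and PTPRC were among those without. The summed neuroendocrine and neuronal level was 109 to 156 CPM with the inhibitor, against 191 to 233 CPM with siATF4-2 and 302 to 379 CPM with siATF4-3, mostly from SYT4, a synaptotagmin (-1.49 ± 0.18). Of the 6 tested members 3 were lower and 1, the tubulin TUBB3, was higher (0.87 ± 0.13); under 12 alternatives 2 were higher. Basal markers summed to 85.7 to 95.1 CPM with the inhibitor, against 63.8 to 79.8 CPM with siATF4-2 and 70.2 to 75.5 CPM with siATF4-3. Of the 4 tested basal markers the cytoskeletal linker DST (0.78 ± 0.08) and the integrin ITGA6 (0.28 ± 0.06) were higher and the integrin ITGB4 (-1.11 ± 0.24) lower. Fibroblast markers summed to 153 to 174 CPM with the inhibitor, against 184 to 242 CPM with siATF4-2 and 193 to 245 CPM with siATF4-3. Leukocyte markers summed to 4.33 to 7.02 CPM with the inhibitor, against 4.35 to 6.08 CPM with siATF4-2 and 5.47 to 6.68 CPM with siATF4-3, and these ranges overlapped. Of the 5 tested fibroblast markers the collagen COL1A1 was higher (0.95 ± 0.10; 2 members were higher with DESeq2 and with no filter on low counts) and 2 were lower, among them vimentin, VIM (-1.63 ± 0.14). In bulk RNA, fewer cells of a type and less RNA per cell cannot be told apart, and the part of these marker changes in the other results was not tested.

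Proliferation genes were lowered by tunicamycin in every member of both lists, 42 of 42 S-phase and 40 of 40 mitotic genes, beside 34.7% of all genes. Many also stood lower with the inhibitor than with the ATF4 siRNAs. Of the S-phase genes 26 were lower and 3 higher (median -0.31), and of the mitotic genes 18 were lower and 5 higher (median -0.16). The lower shares were 61.9% and 45%, beside 33.3% lower and 32.3% higher of all genes, and 17 mitotic genes were not called. The 5 higher mitotic genes became 8 under upper-quartile scaling or without PERKi replicate 4, and 3 without PERKi replicate 2. UHRF1, which maintains DNA methylation at replication, averaged 5.16 ± 2.21 CPM with the inhibitor, against 15.5 ± 0.597 CPM with siATF4-2 and 18.2 ± 1.98 CPM with siATF4-3 (SD, n = 4 each; difference -1.70 ± 0.16). The helicase subunit MCM2 differed by -1.07 ± 0.18 and the kinase CDK1 by -0.55 ± 0.05. CDC6, the factor that loads that helicase, went the other way: it was at 119, 137, 127 and 137 CPM with the inhibitor, against 67.5, 77.2, 67.9 and 74.4 CPM with siATF4-2 and 54.1, 54.6, 58.6 and 64.9 CPM with siATF4-3 (difference 1.01 ± 0.06), and stood 1.30 ± 0.07 above TM siCtrl with the inhibitor. Against TM siCtrl, 24 of the S-phase genes were higher and 1 lower in PERKi libraries, 40 higher and 1 lower in siATF4-2 libraries, and 37 higher and 1 lower in siATF4-3 libraries. The shares of all genes were 18.2% higher and 17.5% lower with the inhibitor, 28.4% and 27.2% with siATF4-2, and 31.2% and 30.7% with siATF4-3.

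Cell death and cytosolic chaperone genes were mixed. The counts below stand beside 32.3% higher and 33.3% lower of all genes tested. Of 30 p53 targets and CDK inhibitors 18 were higher and 6 lower, with CDKN2B at 2.37 ± 0.14, GADD45A at 2.10 ± 0.09 and GADD45B at 1.58 ± 0.14. Of 24 BCL2 family and TRAIL receptor genes 12 were higher and 8 lower: the death receptor TNFRSF10B (DR5) differed by 1.33 ± 0.07, the BH3-only gene PMAIP1 by 1.61 ± 0.11, and BOK, a BAX relative, by -1.43 ± 0.13. Of 27 cytosolic heat shock genes 16 were lower and 6 higher (median -0.20), with the co-chaperone FKBP4 at -0.88 ± 0.04 and the chaperonin subunit CCT2 at -0.79 ± 0.04, while DNAJB4 and BAG3 were higher, at 1.35 ± 0.12 and 0.89 ± 0.06. The 16 mitochondrial chaperones and proteases split into 8 higher and 8 lower, with GRPEL2 at 1.22 ± 0.06 and SPG7 at -0.72 ± 0.06. Of 25 interferon-stimulated genes 10 were higher (40%, not far from the share over all genes) and 5 lower (20%), with a median of 0.08. The largest differences among them were those of IFI35 (1.90 ± 0.23) and IRF1 (1.66 ± 0.11). Of 15 NF-kB subunits and targets 8 were higher and 4 lower; CXCL8, the cytokine interleukin 8, was at 1.74, 1.19, 1.16 and 0.373 CPM with the inhibitor, against 0, 0, 0.0738 and 0.0800 CPM with siATF4-2 and 0.180, 0, 0 and 0.0809 CPM with siATF4-3, too few counts for a fold.

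The 2 oligos did not leave the same levels. Between siATF4-2 and siATF4-3, 1221 genes were higher (8.53%) and 888 lower (6.20%), 14.7% in all, and 10 genes (0.0699%) were called against each oligo with opposite signs. PLCB1, a phospholipase, was at 6.76, 7.64, 8.16 and 10.5 CPM with the inhibitor, against 4.17, 3.55, 2.73 and 4.24 CPM with siATF4-2 and 13.4, 10.4, 11.7 and 11.6 CPM with siATF4-3, so it was higher than with siATF4-2 (1.19 ± 0.18) and lower than with siATF4-3 (-0.49 ± 0.15). RBP7, a retinol-binding protein, had the same pattern (0.66 ± 0.20 against siATF4-2 and -0.41 ± 0.17 against siATF4-3). PERP, a p53-induced membrane protein, and BCL2L13, a mitochondrial BCL2 relative, had the opposite signs (-0.19 ± 0.06 and 0.16 ± 0.06 for PERP, -0.12 ± 0.05 and 0.12 ± 0.05 for BCL2L13). These small differences were not stable across the 21 alternatives: BCL2L13 lost its call against siATF4-2 in 9 (adjusted p up to 0.10) and against siATF4-3 in 5 (up to 0.10), RBP7 against siATF4-3 in 6 (up to 0.16) and PERP against siATF4-3 in 2 (up to 0.055), while PLCB1 kept both calls.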

How the data were processed

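Per the submitters' processing notes, the tools were DESeq2 1.10.1, featureCounts 1.5.0-p1 and TopHat2 2.1.0, on build hg19, with settings not given in the sources used. The deposited values are raw counts of reads per gene, in 6 tables of 25370 lines; the 1 nameless line had 0 counts, and TM siCtrl columns recur with 0 differing values and entered once. Libraries were strand-specific per the labels' protocols, but no source states strand-aware counting, which leaves genes with exons shared with a neighbour uncertain, namely BOK, DDIT3, DERL3, DNAJB9, EIF2AK3, GPR158, MCFD2, SLC6A6, SLC6A9, SLC7A11, TNFRSF10B, UGT2B15, VIM and YARS.

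Counts were fitted with edgeR 4.0.16 (R 4.3.3): TMM scaling, filterByExpr by group (minimum count 10, minimum total 15), robust quasi-likelihood F-tests on group means of all 28 libraries, Benjamini-Hochberg adjustment. The same pipeline was tested on simulated counts. Named genes were the targeted genes, the 12 most higher and 12 most lower genes (called in all 3 contrasts, mean log2 CPM at least 1, no overlap), leading called list members, a set of stress, androgen and lipid genes, and genes with opposite signs against the oligos; TXNIP, NDRG1, SEC24C, SRP9, CANX, SIL1, TXNDC5 and QSOX1 and the tunicamycin classes were chosen after their values were seen. The comparison, members and gene lists were chosen with earlier results of these data known. Alternatives were other scalings and filters, DESeq2 1.42.0, limma-voom 3.58.1, only the 12 compared libraries, a replicate block and leaving out each library. Some genes under the naming rule are not reported here. The floor of 3 counts covers counting error only.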

Additional observations from a re-analysis of the deposited data

Results flagged for a closer look

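In 22 of 461 sets of 4 libraries (a named gene in 1 of the 3 compared groups), the highest or lowest library lay far from the other 3 by Dixon's test; chance flags about 1 set in 20. Replicate 4 was that library in 17 of the 22: 8 in siATF4-2, 4 in siATF4-3 and 5 in PERKi. The library PERKi replicate 1 stood apart for GARS at 1117 CPM (nearest 1151). The library PERKi replicate 3 stood apart for GADD45B at 7.95 CPM (nearest 9.26). The library PERKi replicate 4 stood apart for CBLN2 at 1.57 CPM (nearest 0.408), GFPT1 at 979.6 CPM (nearest 1117), FASN at 498 CPM (nearest 387), PMEPA1 at 35.8 CPM (nearest 27.2) and MAP1LC3B at 282 CPM (nearest 317). The library siATF4-2 replicate 2 stood apart for UHRF1 at 14.6 CPM (nearest 15.7) and CDK1 at 122 CPM (nearest 103). The library siATF4-2 replicate 3 stood apart for ATF6 at 93.6 CPM (nearest 107). The library siATF4-2 replicate 4 stood apart for FLRT1 at 2.08 CPM (nearest 0.818), CHAC1 at 21.0 CPM (nearest 6.63), LCN2 at 3.52 CPM (nearest 1.18), HMOX1 at 14.4 CPM (nearest 12.8), MSMO1 at 83.9 CPM (nearest 61.8), KIF2C at 32.1 CPM (nearest 37.6), KIF20A at 34.6 CPM (nearest 41.7) and SERPINA3 at 2.16 CPM (nearest 0.652). The library siATF4-3 replicate 4 stood apart for FIBIN at 0.728 CPM (nearest 0.179), CHAC1 at 4.29 CPM (nearest 1.92), LURAP1L at 0.647 CPM (nearest 0.284) and DERL3 at 20.8 CPM (nearest 15.6).

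The 4 genes named here with opposite signs against the 2 oligos were chosen because the inhibitor lay between the oligos, so a difference between the oligos follows from that choice and is given as a description. As siATF4-2 minus siATF4-3 the difference was -1.68 for PLCB1, -1.07 for RBP7, 0.35 for PERP and 0.25 for BCL2L13 (log2).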

How the results depend on the processing

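Across 21 alternatives the counts with the inhibitor against both ATF4 siRNAs ran from 4393 to 4970 genes higher and 4450 to 4953 lower; leaving out 1 library at a time gave 4393 to 4656 and 4500 to 4769. At least 2-fold higher were 852 to 1440 genes, and 1440 came with no filter on low counts (21450 genes tested); at least 2-fold lower were 582 to 734. Tunicamycin-raised genes higher with the inhibitor numbered 1013 to 1077 of 1215. Without replicate 4 of both ATF4 siRNA groups, an alternative chosen after seeing the data, the counts were 4626 and 4749. Scaling moved the median difference by at most 0.03 (log2). Of the list counts, 1386 stayed within 1.5 times the reported count and 42 did not. The alternatives were followed for the targeted, ranked, fixed-set and opposite-sign genes and the leading members of each list. Other genes named above, such as EIF2AK4 and TXNIP, were not followed. No gene that was followed changed direction. The 22 lost calls among them were all against a single oligo, in BCL2L13, RBP7 and PERP.

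Replicate numbers were shared between groups, and same-numbered libraries tended to deviate together, mostly weakly. All 12 pairs had a positive correlation (0.01 to 0.30), 3 had one above 0.1, and 9 correlated best with their own number. The reported fit has no term for the replicate number. With the replicate number as a block, 4790 genes were higher and 4953 lower with the inhibitor than with both ATF4 siRNAs, and 9 mitotic genes higher, against 5 without the block. Depth limits the genes with few counts in the ATF4 siRNA libraries, such as FGF21, SERPINA3, CXCL8 and AKR1C1.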
